A study of Homo sapiens with 23 samples.

Results

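Butyrylation and acetylation of the same residue, lysine 12 of histone H4 (H4K12bu and H4K12ac), were set side by side in SW480, a human cell line grown from a colon adenocarcinoma, given 1 mM sodium butyrate (NaBu) for 12 to 16 h. The comparison used 4 of the 23 samples of the series, the 2 ChIP-seq libraries of H4K12bu NaBu and the 2 of H4K12ac NaBu, chosen by antibody and treatment alone. ChIP-seq pulls down chromatin with an antibody against a mark and sequences its DNA, and each library came as a list of peaks, called regions here, with the fold enrichment over a NaBu input of sheared chromatin. All 4 libraries carry the same run tag, and the labels give the same treatment for all. Names of the acetyl lists, however, hold the tag cnt, as do those of the untreated acetyl libraries. The labels were followed, and if the tag were right, the mark and the treatment could not be told apart in any comparison given here. Nothing in the labels says whether replicates were separate cultures, so that the spread between them may be technical.

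A lysine of a histone tail can be acetylated or carry a longer acyl chain such as butyryl, made from butyryl-CoA, and both remove the positive charge of the side chain. Acetyltransferases such as p300 can also place butyryl groups, bromodomain proteins are readers of acetyl-lysine, and some histone deacetylases are inhibited by butyrate. Butyrate is a product of bacterial fermentation of fiber and a main fuel of colon epithelium. Acetylated H4 is known from active promoters and enhancers.

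The question was which genes carry one mark and not the other. A gene was called one-sided when both libraries of one mark had a region there and neither library of the other mark had one. Windows of 2 kinds were read for 38899 GENCODE genes, 20033 of them protein-coding, namely 1 kb on either side of the transcription start site (TSS, the 5′ end of the gene) and the gene body. Each call was made with all regions and again with the 8158 regions of lowest p in each library, which is the length of the shortest list.

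The sequences under the leading regions are given first, each as 200 bases centred on the mean summit of the libraries that hold it, from hg38 and read on the strand of the gene. CpG dinucleotides, frequent in many promoters, are in capitals. APMAP, EBF4 and SMARCD1 are shown because the butyryl libraries alone had a region at their TSS, ARID4A because the acetyl libraries alone did, and NDUFA4 and CALM3 because all 4 did at high rank.
APMAP: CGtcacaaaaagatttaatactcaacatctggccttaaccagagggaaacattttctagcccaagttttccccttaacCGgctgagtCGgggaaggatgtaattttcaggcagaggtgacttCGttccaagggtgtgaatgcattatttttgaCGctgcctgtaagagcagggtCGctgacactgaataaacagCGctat
EBF4: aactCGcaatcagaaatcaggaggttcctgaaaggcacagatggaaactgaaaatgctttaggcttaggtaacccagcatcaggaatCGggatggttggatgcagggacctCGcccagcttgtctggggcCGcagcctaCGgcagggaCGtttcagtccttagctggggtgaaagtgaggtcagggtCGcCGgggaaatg
SMARCD1: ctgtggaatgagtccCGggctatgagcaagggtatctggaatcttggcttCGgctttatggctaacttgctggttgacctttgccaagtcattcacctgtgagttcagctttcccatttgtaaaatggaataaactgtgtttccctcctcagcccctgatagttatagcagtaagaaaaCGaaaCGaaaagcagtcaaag
ARID4A: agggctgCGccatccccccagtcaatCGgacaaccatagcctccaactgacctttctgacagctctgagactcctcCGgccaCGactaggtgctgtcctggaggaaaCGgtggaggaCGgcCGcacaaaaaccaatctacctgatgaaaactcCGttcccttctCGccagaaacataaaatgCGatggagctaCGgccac
NDUFA4: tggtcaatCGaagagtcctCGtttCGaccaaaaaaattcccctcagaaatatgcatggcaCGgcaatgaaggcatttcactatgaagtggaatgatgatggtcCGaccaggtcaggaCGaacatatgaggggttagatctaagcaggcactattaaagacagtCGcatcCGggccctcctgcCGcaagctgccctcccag
CALM3: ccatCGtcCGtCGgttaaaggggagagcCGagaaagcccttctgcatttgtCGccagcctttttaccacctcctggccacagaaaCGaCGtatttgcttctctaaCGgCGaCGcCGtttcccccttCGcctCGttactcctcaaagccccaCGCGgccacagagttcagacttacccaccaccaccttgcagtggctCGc
The APMAP window (chr20:24993116-24993315, minus strand) lay upstream of the gene, in an exon of an lncRNA that has no symbol. The EBF4 window (chr20:2692072-2692271, plus strand) and the SMARCD1 window (chr12:50084768-50084967, plus strand) were intergenic. The ARID4A window (chr14:58297904-58298103, plus strand) lay in exons of ARMH4 and PSMA3-AS1, which start from the same place in the other direction. The NDUFA4 window (chr7:10940191-10940390, minus strand) was intergenic, and the CALM3 window (chr19:46600708-46600907, plus strand) lay in an exon of PPP5D1P. The windows held 7 CpG at APMAP, 8 at EBF4, 4 at SMARCD1, 11 at ARID4A, 9 at NDUFA4 and 16 at CALM3, with only 1 window shown for the acetyl libraries alone.

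The lists differed in length before any gene was read. H4K12bu had 9642 and 8158 regions, and H4K12ac had 88658 and 11680, so that acetyl replicate 2 was close to the butyryl libraries and acetyl replicate 1 stood apart. At q under 0.05 the lists kept 1997, 1457, 28446 and 2917 regions. Fold and p of a region share one pileup, and from them the size of 1 ChIP fragment in the scaled pileup was recovered, at 0.212 and 0.284 for H4K12bu and 0.853 and 0.198 for H4K12ac, where a value of 1 means no scaling to the input. A small value means many ChIP fragments for each input fragment, between 1.17 for acetyl replicate 1 and 5.06 for acetyl replicate 2. The longest H4K12 list thus came with the largest step, as in H3K18ac of the same run (0.753 and 0.446 with 116459 and 60344 regions), and the part of this scaling in the lengths was not tested.

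**Figure D1:**
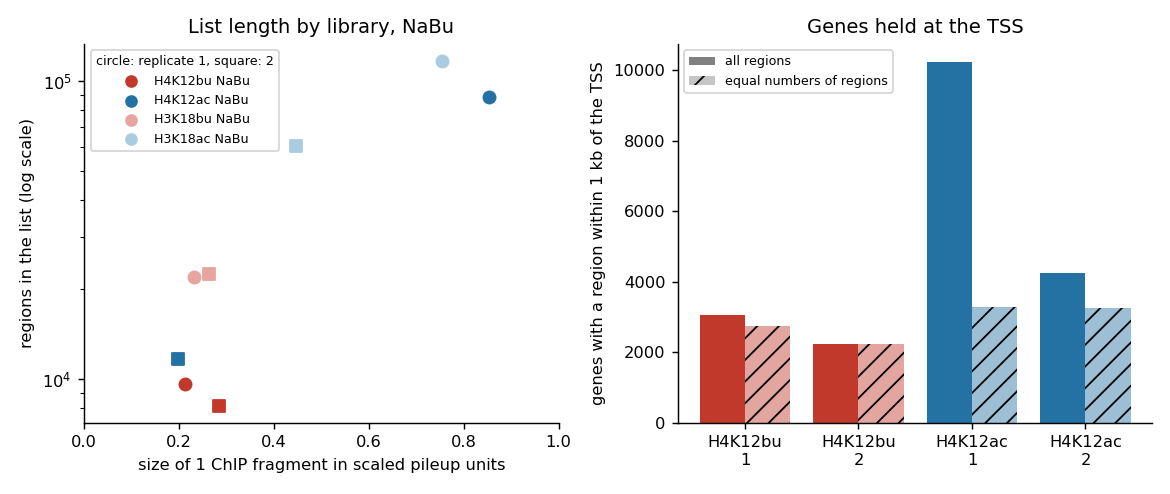
Left, number of regions in each NaBu list (log axis) against the size of 1 ChIP fragment in scaled pileup units, where circles are replicate 1 and squares replicate 2. Right, genes with a region within 1 kb of the TSS in each H4K12 library, with all regions (solid) and with 8158 regions each (hatched). H4K12ac replicate 1 falls from 10238 to 3280 genes when its list is cut to the common length.

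Cell identity was read from the same lists. Of 9 colon epithelial markers, EPCAM, CLDN4, KRT8 and KRT18 had a TSS region in all 4 libraries, with fold 3.00, 3.76, 6.59 and 7.06 at EPCAM (butyryl 1 and 2, then acetyl 1 and 2). VIL1, a brush border protein, had regions in both acetyl libraries alone, with fold 4.77 and 3.90. Of 14 markers of blood, vessel, stroma, nerve, liver and islet cells, 12 had none in any of the 4 libraries, as had 3 of the 9 colon markers and 28056 of all 38899 genes. The exceptions were COL1A2, with fold 3.91 in butyryl replicate 1 and 6.02 and 3.74 in the acetyl libraries, and CD68, with fold 4.23 in acetyl replicate 1.

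With all regions, the acetyl libraries held 1293 genes at the TSS that the butyryl libraries lacked, and the butyryl libraries held 20 that the acetyl libraries lacked. These were 3.32% and 0.0514% of all genes. The butyryl share of one-sided genes was 1.52% (95% Wilson interval 0.988% to 2.34%, counting error only). All 4 libraries held 1457 genes. Of the 1576 genes held by both butyryl libraries, 98.7% also had an acetyl region in at least 1 library, whereas 67.2% of the 3938 genes held by both acetyl libraries had a butyryl region. Genes held at the TSS by both butyryl libraries thus almost all had an acetyl region. At 89 of them it was in acetyl replicate 1 alone, and at 10 in replicate 2 alone. Acetyl replicate 1, the long list, had a TSS region at 26.3% of all genes, and replicate 2 at 10.9%. Counted as regions at any position, 79.0% and 69.3% of the butyryl lists overlapped acetyl replicate 1, and 61.8% and 58.6% overlapped replicate 2. Between replicates, 43.2% of butyryl replicate 1 overlapped replicate 2 and 51.7% of replicate 2 overlapped replicate 1, with all regions. With all regions, each butyryl list thus overlapped either acetyl list more than the other butyryl list. Of acetyl replicate 2, 80.2% overlapped replicate 1, and 10.3% the other way round. One-sided calls need both replicates, so they depend on this agreement as well as on the mark. With equal numbers, butyryl replicates 1 and 2 overlapped acetyl replicate 1 at 50.9% and 42.3%, and acetyl replicate 2 at 55.6% and 49.9%. Butyryl replicate 1 then overlapped butyryl replicate 2 at 47.4%, and 48.1% the other way round. At the TSS, 93.1% of genes held by both butyryl libraries then had an acetyl region. Of those held by both acetyl libraries, 79.7% had a butyryl region. Beyond this cut, the part of list length in these values was not tested.

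The 20 genes of the butyryl side rested on 15 pairs of regions, since neighbouring genes shared a region, and each was weak. Fold ran from 2.66 to 3.89 in replicate 1 and from 2.74 to 4.42 in replicate 2, and at 0 of the 20 genes did either region reach q under 0.05. APMAP, a plasma membrane protein of adipocytes, had fold 3.32 and 3.16, with summits 470 and 459 bp upstream of the TSS. EBF4, of the early B cell factor family of transcription factors, had 3.15 and 3.62. LSM14B, an RNA-binding protein, had 3.15 and 4.42, with summits 980 and 1072 bp upstream, at the edge of the window. PBRM1, the polybromo subunit of the PBAF chromatin remodeller and itself a bromodomain protein, had 3.15 and 3.46. SMARCD1, another subunit of SWI/SNF remodellers, had 3.89 and 2.98, with summits 333 and 331 bp upstream. PBRM1 was among the 10 strongest, SMARCD1 was named after its values were seen, and no list of remodellers was tested.

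The remaining butyryl-side genes were of mixed kinds, and most were named to account for all 20. ZNF891 and ZNF10, zinc finger genes that start back to back, shared with a neighbour the same region of fold 3.28 and 3.46. SYNRG, which works in clathrin-coated vesicle traffic, had 2.94 and 4.29. RAB22A, a small GTPase of endosomes, had 2.97 and 2.83, the progesterone receptor membrane protein PGRMC2 had 2.91 and 2.77, and the mitochondrial membrane protein STOML2 had 2.78 and 3.14. The lncRNAs MIR3142HG and LINC01034 had 2.80 and 2.83, and 2.66 and 2.81. The others were lncRNAs without a symbol, of which 1 also had a NaBu input peak in its window.

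The strongest regions of the acetyl side were well above those of the butyryl side. ARID4A, a chromodomain protein that binds RB1, shared with ARMH4 and PSMA3-AS1 a region of fold 15.8 and 8.12, with no butyryl region in the window. CENPO, a kinetochore protein, and PTRHD1, which lies against it, had 7.32 and 8.54. ISCU, the scaffold on which iron-sulfur clusters are built, had 4.64 and 6.18, with summits 1050 and 1262 bp upstream, so that the regions reach into the window from outside it. GTF2H1, a subunit of the general transcription factor TFIIH, and HPS5, a factor of lysosome-related organelles, shared 7.30 and 6.26. DDX27, a nucleolar RNA helicase, had 6.93 and 6.12, and the lncRNA TMEM202-AS1 had 12.6 and 7.64, with summits 1149 and 1307 bp downstream. Each of these 10 strongest genes had q under 0.05 in both acetyl libraries. Over the whole acetyl side, median fold was 4.79 and 3.42, beside 3.15 and 3.31 on the butyryl side, so that the replicate 2 medians were close. On the acetyl side, 161 of the 1293 genes had q under 0.05 in both libraries.

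**Figure D2:**
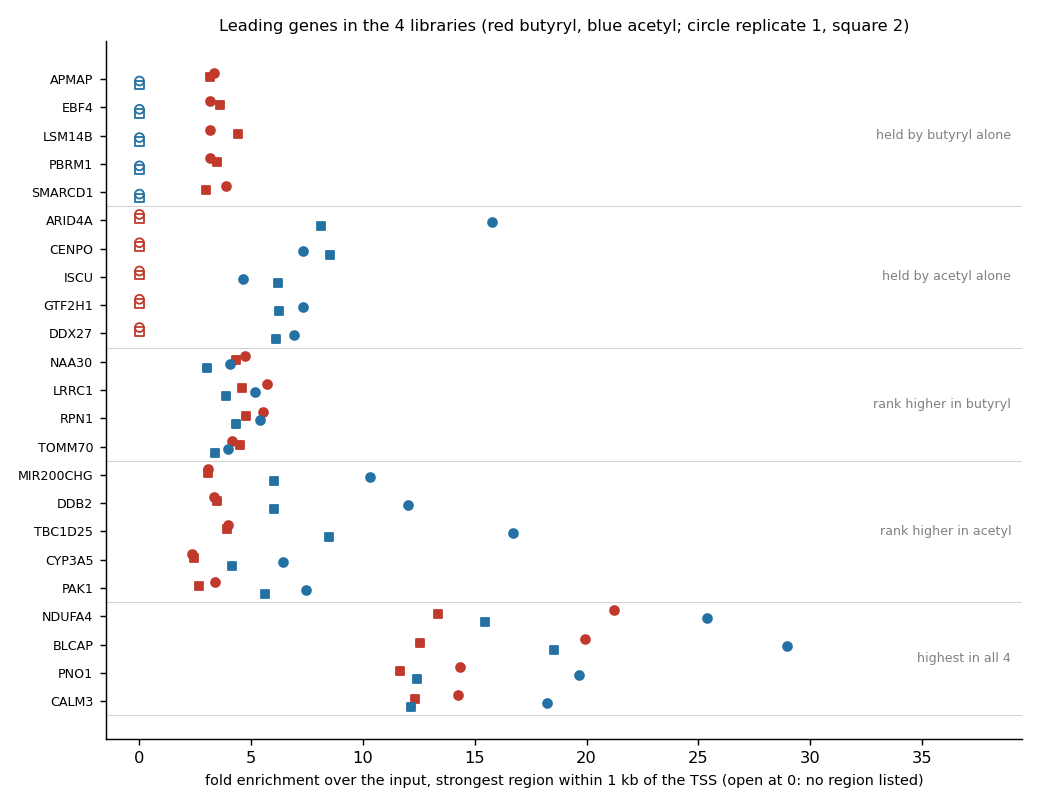
Fold enrichment over the input of the strongest region within 1 kb of the TSS, for leading genes in the 4 libraries (red butyryl, blue acetyl, circles replicate 1, squares replicate 2, open symbols at 0 where no region is listed). Of the genes drawn, those held by the butyryl libraries alone sit between 2.98 and 4.42. Those drawn for the acetyl libraries alone sit between 4.64 and 15.8, and lead a side of 1293 genes, against 20 for butyryl. Over the whole acetyl side, fold started at 2.25 in replicate 1 and 2.08 in replicate 2, so the full sides overlap. Median fold was 4.79 and 3.42 on the acetyl side, and 3.15 and 3.31 on the butyryl side.

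Cutting each list to 8158 regions changed the balance but not its direction. The butyryl side then held 105 genes at the TSS and the acetyl side 430 (0.27% and 1.11% of all genes), a butyryl share of 19.6% (16.5% to 23.2%), and all 4 libraries held 1133. Both regions had q under 0.05 at 0 of the 105 genes and at 139 of the 430, and either region at 16 and at 430. The last count was fixed by the cut, since all 8158 regions kept for acetyl replicate 1 had q under 0.05. In the butyryl libraries 1997 and 1457 of the 8158 did. The cut lists reached down to a −log10 p of 2.74 and 2.02 for H4K12bu, and of 7.09 and 3.03 for H4K12ac. Equal numbers thus set a stricter cut in acetyl replicate 1 than in the other libraries. Of the 105 butyryl genes, 87 had an acetyl region in the full lists, so that 18 lacked one at any rank. Of the 430 acetyl genes, 387 had no butyryl region in the full lists. With 1 butyryl library set against 1 acetyl library, the share of genes was 39.3% and 38.0% for butyryl replicate 1 against acetyl replicates 1 and 2, and 29.9% and 27.6% for butyryl replicate 2, with fewer butyryl than acetyl genes in each of the 4 pairs. Leaving out butyryl replicate 1 or 2, which loosens the rule for that mark alone, gave 35.3% and 48.9%, and leaving out acetyl replicate 1, the long list, gave 15.5%.

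Most leading butyryl genes at equal numbers had acetyl regions further down the full lists. TOMM70, the import receptor of the mitochondrial outer membrane, and LNP1 share a promoter, with fold 4.16 and 4.48 in the butyryl libraries and 3.95 and 3.36 in the acetyl libraries. Their acetyl regions were thus listed, but below the 8158 strongest. ATF7, a CREB-family transcription factor, had 4.99 and 4.10 with H4K12bu, and 5.03 in acetyl replicate 1 with no region in replicate 2. The lncRNA MIR181A2HG, host of miR-181a and miR-181b, had 4.13 and 3.91, and 3.68 in acetyl replicate 1. CARF had 3.77 and 4.05, and 2.56 in acetyl replicate 1. RIPK4, a kinase of epithelial differentiation, had 3.64 and 4.26, and 5.52 and 3.33 in the acetyl libraries. On the acetyl side TRIM41, a ubiquitin ligase, joined the leaders with fold 6.59 and 5.73, and had 2.31 in butyryl replicate 1.

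**Figure D3:**
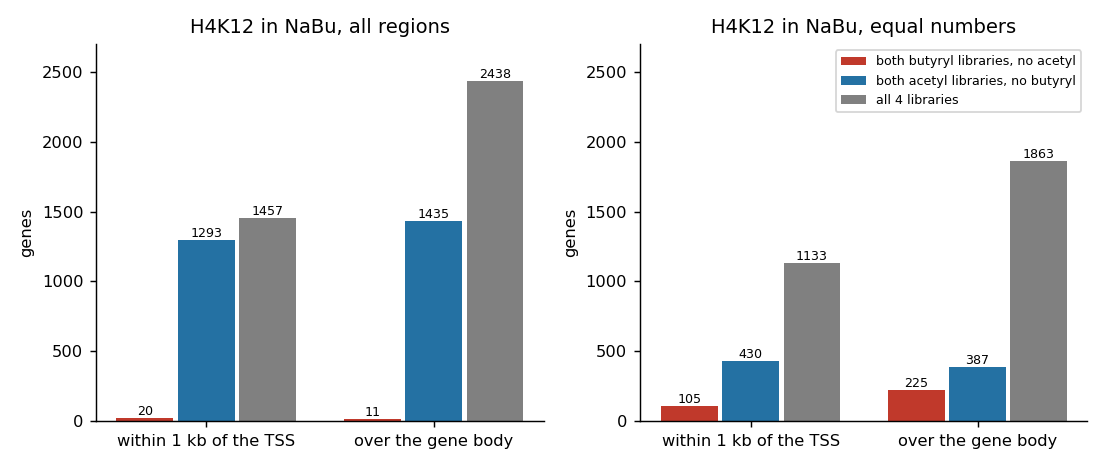
Number of genes held by both butyryl libraries and no acetyl library (red), by both acetyl libraries and no butyryl library (blue) and by all 4 (grey), at the TSS and over the gene body, with all regions (left) and with 8158 regions from each library (right). The red bars rise from 20 to 105 at the TSS and from 11 to 225 over the body when lists are of equal length.

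Gene bodies gave the same direction with all regions, but a narrower gap at equal numbers. With all regions 11 genes were on the butyryl side and 1435 on the acetyl side (0.0283% and 3.69% of all genes), a butyryl share of 0.761% (0.425% to 1.36%). With equal numbers the sides held 225 and 387 genes (0.578% and 0.995%), a share of 36.8% (33.0% to 40.7%), and 1863 genes were held by all 4. Of the 225 butyryl genes, 217 had an acetyl region in the full lists. Both regions had q under 0.05 at 0 of the 225 genes and at 96 of the 387, and either region at 18 and at 387, the last again fixed by the cut. The share of genes in pairs of 1 library against 1 was 40.9%, 46.3%, 41.8% and 46.3%. Leaving the 1 kb after the TSS out of the body moved the share to 47.6%, with 202 butyryl and 222 acetyl genes. The direction turned without butyryl replicate 1 or 2, at 56.4% and 57.4%, under a rule then looser for butyryl, and without acetyl replicate 1 or 2 the share was 29.5% and 24.1%.

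Leading body genes of the butyryl side were again of modest fold. PALM2AKAP2, an anchoring protein for protein kinase A, had fold 4.27 and 4.87, and its body, which also holds a NaBu input peak, had 24 regions in the long list of acetyl replicate 1 and 0 in acetyl replicate 2. RIMBP2, a protein of presynaptic active zones, had 3.97 and 3.62, and 3.75 and 3.44 in the acetyl libraries, also with an input peak in its body. On the acetyl side MOCS3, which activates sulfur carrier proteins in molybdenum cofactor synthesis, had 11.5 and 12.8 with 0 butyryl regions over its body. LINC02340 had 7.65 and 7.40. MOCS3 and LINC02340 had regions in all 4 libraries within 1 kb of the TSS, so their call holds for the body and not for the start site.

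Regions, not genes, were then counted by position. Regions of the 4 libraries cut to equal numbers were joined where they shared a base. At the TSS 103 joined regions were on the butyryl side and 335 on the acetyl side, a butyryl share of 23.5% (19.8% to 27.7%). Gene bodies away from any TSS held 250 butyryl and 214 acetyl regions (53.9%, 49.3% to 58.4%), and intergenic sequence held 116 and 108 (51.8%, 45.3% to 58.2%). The intervals at the TSS and away from it did not overlap, though they cover counting error only. In pairs of 1 library against 1, the share was 41.4%, 38.9%, 32.3% and 28.7% at the TSS and 50.1%, 53.4%, 53.5% and 56.5% away from it, so that the TSS value was the lower of both in each of the 4 pairs, and the pairs share libraries. Leaving out 1 library moved both, to between 14.4% and 56.9% at the TSS (the latter without butyryl replicate 2) and between 23.5% and 81.1% away from it. The TSS value was the lower one in each of the 4 cases. Lists cut to the same length hold more regions away from the TSS where they hold fewer at it. The values at and away from the TSS are thus not independent. The pairs and the cases go back to the same TSS share of each list, given below, and do not add to it. With all regions the share was 6.09% in gene bodies and 6.69% between genes, and at the TSS 23 regions stood against 1072.

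**Figure D4:**
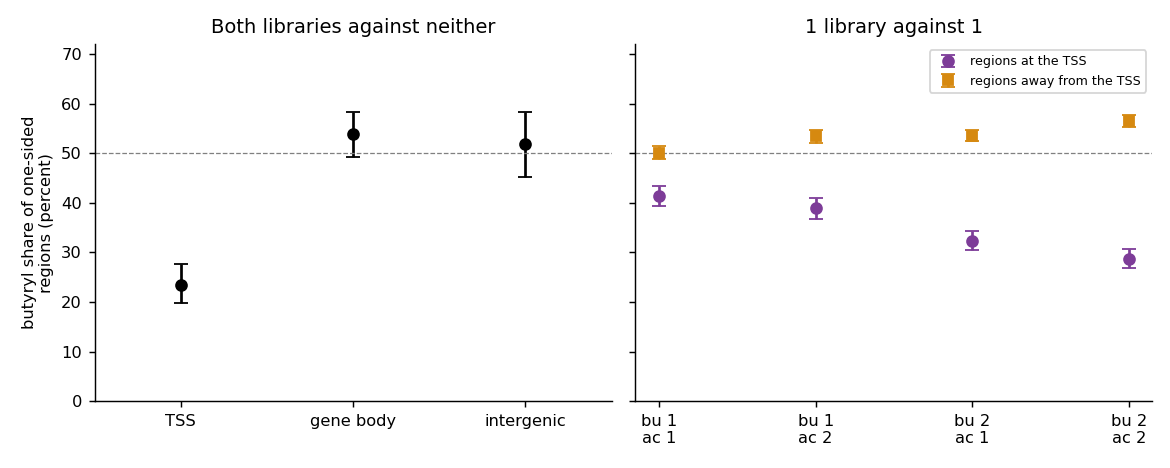
Butyryl share of one-sided regions in percent, with equal numbers of regions and 95% Wilson intervals. Left, regions held by both libraries of one mark and neither of the other, by position. Right, 1 butyryl library against 1 acetyl library, at the TSS (purple circles) and away from it (orange squares), where the purple points lie between 28.7% and 41.4% and the orange between 50.1% and 56.5%.

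The share of each list at the TSS was tested over libraries. With all regions it was 27.6% and 22.8% for H4K12bu and 12.0% and 32.8% for H4K12ac, so that the acetyl libraries lay on either side of the butyryl ones. The difference, butyryl minus acetyl, was 2.79 percentage points (two-sided exact permutation test, p = 1, n = 2 libraries each). With equal numbers it was 28.5% and 22.8% against 32.9% and 34.3%, a difference of −7.96 points with no overlap between groups (exact permutation p = 0.333, the smallest p that 2 against 2 allows). The sign thus turned with list length, and the exact permutation test cannot reach 0.05 at this number of libraries.

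Around the TSS the summits of both marks fell on either side of the start. At equal numbers, the bin from 500 to 250 bp upstream of the nearest protein-coding TSS held 4.66% and 4.00% of H4K12bu summits and 5.37% and 6.26% of H4K12ac summits. The bin just upstream of the start held 2.71% and 2.23% against 3.74% and 3.71%, and the first 250 bp of the gene held 3.84% and 2.49% against 5.04% and 5.50%. Groups did not overlap in these 3 bins or in any other bin within 1 kb of the start. From 750 to 1000 bp downstream, for example, the values were 1.31% and 1.18% against 1.77% and 1.64%. The difference was thus not limited to the start itself, and all 4 libraries had the dip at the start. The median summit within 1 kb lay 93 and 177 bp upstream for H4K12bu and 63 and 104 bp upstream for H4K12ac, with overlap between groups.

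**Figure D5:**
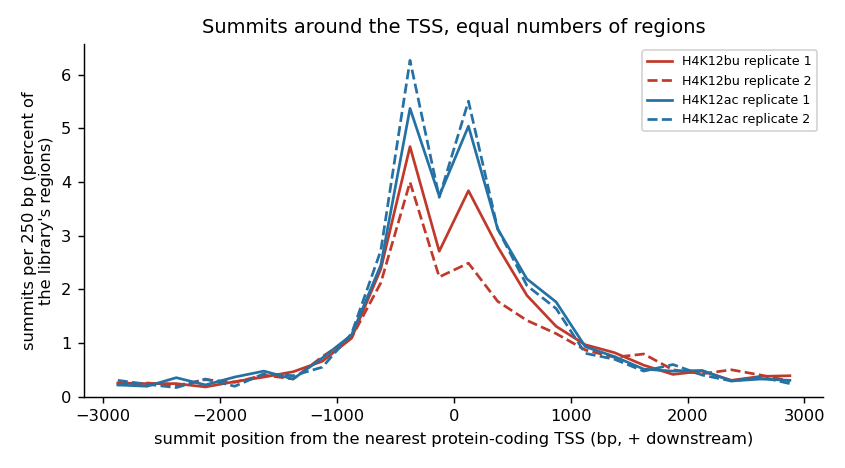
Summits in bins of 250 bp around the nearest protein-coding TSS, in percent of the 8158 regions of each library (red butyryl, blue acetyl, solid replicate 1, dashed replicate 2). All 4 curves have a peak on both sides of the start, and the acetyl curves lie above the butyryl curves in each bin within 1 kb of it.

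Genes held at the TSS by all 4 libraries were then compared by rank, which does not depend on list length in the same way. Among these 1457 genes, each library's strongest TSS region was given a percentile by its p. Fold at these genes had a median of 4.32 and 3.94 with H4K12bu and 7.34 and 4.88 with H4K12ac, and median width was 345 and 316 bp against 545 and 449 bp. The top of the order was common to both marks. NDUFA4, a subunit associated with cytochrome c oxidase, had fold 21.2 and 13.4 with H4K12bu and 25.4 and 15.5 with H4K12ac, and a NaBu input peak in its window. BLCAP, a small protein first described in bladder cancer, had 19.9, 12.5, 29.0 and 18.5. PNO1, a factor of small ribosomal subunit assembly that faces DNAAF10, had 14.3, 11.7, 19.7 and 12.4. CALM3, 1 of the calmodulin genes, had 14.3, 12.3, 18.2 and 12.1.

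Both butyryl libraries ranked 267 genes above both acetyl libraries, and both acetyl libraries ranked 234 above both butyryl ones (18.3% and 16.1% of the 1457). The counts in both directions were close to each other, and were not tested against those that a random order of the libraries would give. Such an order also puts genes in both classes, so the counts are not read as differences between the marks. The genes below are given as the widest gaps, as a description. The widest butyryl gap was at NAA30, the catalytic subunit of an N-terminal acetyltransferase, at percentiles 57.8 and 56.2 against 9.13 and 9.78. LRRC1, a polarity scaffold, had 71.1 and 65.5 against 13.3 and 24.2. RPN1, a subunit of the oligosaccharyltransferase, had 65.3 and 62.8 against 14.6 and 25.1. TOMM70 and LNP1 had 38.7 and 63.5 against 1.61 and 2.75. At these genes the folds of both marks were alike, for example 5.55 and 4.75 against 5.40 and 4.33 at RPN1, and the gap is one of rank within each list.

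The widest acetyl gaps went with higher fold as well. MIR200CHG, host of miR-200c and miR-141, which help keep cells epithelial, stood at percentiles 74.9 and 69.3 with H4K12ac, 50.2 points or more above both butyryl libraries, with fold 3.08 and 3.05 against 10.3 and 6.03. Its summits lay far from each other, spread over 2367 bp. DDB2, a damage-recognition protein of nucleotide excision repair, had fold 3.36 and 3.48 against 12.0 and 6.03, and a NaBu input peak in its window. TBC1D25, a Rab GTPase-activating protein, had 3.95 and 3.91 against 16.7 and 8.47. CYP3A5, a drug-metabolising cytochrome P450, had 2.37 and 2.45 against 6.42 and 4.15. The kinase PAK1, which acts on the actin cytoskeleton, had 3.38 and 2.66 against 7.47 and 5.60. The rule that chose these 5 fixed their order of rank, and fold is from the same regions.

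Across the 1457 genes, ranks were no more alike within a mark than between marks. Spearman's rank correlation was 0.601 between the butyryl replicates and 0.649 between the acetyl replicates. Butyryl replicate 1 had 0.703 with acetyl replicate 2, and butyryl replicate 2 had 0.653 with it. With acetyl replicate 1 they had 0.615 and 0.509. These values describe genes within libraries that share 1 input, and carry no p.

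Members of the 22 gene lists were counted at the TSS with all regions. On the butyryl side there were 0 from any list, where 0.0599% of all protein-coding genes stood. Among 15 AP-1 genes, JUND, FOSB, FOSL1 and MAFK were on the acetyl side, with fold 6.31 and 5.44 at JUND and 6.05 and 5.16 at FOSB, and JUN, FOSL2 and FOS were held by all 4. FOSL1 lost the call with equal numbers. FOSL2 had fold 6.42, 4.33, 9.78 and 6.23. Of 84 cytosolic ribosomal protein genes, 14 were on the acetyl side and 19 were held by all 4. RPL31 had fold 6.72 and 3.98 with no butyryl region. RPL35A had 9.60, 11.4, 11.2 and 11.9, and RPL41 ranked higher with H4K12bu at fold 5.15 and 6.86 against 4.54 and 4.45. Beside these stood 4.64% of all protein-coding genes on the acetyl side and 4.92% held by all 4. With equal numbers, 2 ribosomal genes, RPL26 among them, were on the butyryl side and 4 on the acetyl side, where 0.364% and 1.57% of all protein-coding genes stood. Of the 246 chromosome 19 zinc finger genes 1, ZNF600, was on the butyryl side and 4 were on the acetyl side.

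Other metabolic and housekeeping groups had members on the acetyl side with all regions. They were 7 of 82 nuclear genes of oxidative phosphorylation, among them NDUFA11 with fold 7.75 and 3.67, 4 of 48 proteasome genes, 6 of 69 clustered histone genes and 12 of 246 chromosome 19 zinc finger genes. These were 8.54%, 8.33%, 8.70% and 4.88% of the lists, beside 4.64% of all protein-coding genes. With equal numbers the counts fell to 2, 1, 0 and 4. These were 2.44%, 2.08%, 0% and 1.63% of the lists, beside 1.57% of all protein-coding genes. With all regions those held by all 4 numbered 8, 4, 3 and 14 in the same order. These were 9.76%, 8.33%, 4.35% and 5.69% of the lists, beside 4.92% of all protein-coding genes. UQCRH, of complex III, was held by all 4 with fold 7.32, 8.44, 13.4 and 11.7. Of 400 olfactory receptor genes, silent in most tissues, 0 were one-sided and 393 had no region in any of the 4 libraries.

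Genes of acyl-lysine chemistry gave 1 call on the acetyl side, SIRT2, which also held with equal numbers, and 0 on the butyryl side, beside 4.64% and 0.0599% of all protein-coding genes. Of 11 acyltransferase genes, 0 had a butyryl region at the TSS, where 7.90% and 5.73% of all genes had one in the butyryl libraries. KAT6A, KAT7 and HAT1 had one in acetyl replicate 1, with fold 7.50, 5.19 and 3.18. They were 27.3% of the list, beside 26.3% of all genes. Among 18 deacylase genes, the cytosolic tubulin deacetylase HDAC6 was held by all 4 with fold 3.52, 3.30, 7.99 and 3.90, and the NAD-dependent SIRT2 by the acetyl libraries alone with 5.74 and 3.56. Among 19 reader genes, BRD2, a BET bromodomain protein, was held by all 4 with fold 5.89, 5.55, 14.9 and 6.76, as were BRPF1 and TAF1. Of 29 genes of short-chain acyl-CoA metabolism, HADHA, which acts in fatty acid oxidation, was held by all 4 with fold 8.46, 6.01, 5.99 and 6.95, and its percentile was 94.0 and 87.9 with H4K12bu, 29.4 in acetyl replicate 1 and 85.3 in acetyl replicate 2. Of 13 transport and receptor genes for short-chain fatty acids 0 had a region in both libraries of either mark. Over all 38899 genes, 1576 had one in both butyryl and 3938 in both acetyl libraries. Held by all 4 were 15.8% of the reader, 5.56% of the deacylase and 3.45% of the acyl-CoA genes, beside 4.92% of all protein-coding genes. These shares of short lists were not tested either.

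Among genes tied to colorectal cancer, CCND1, the cyclin D1 gene, was on the acetyl side with all regions, with fold 5.43 and 3.10, and so was CDK6, its kinase partner, with 5.45 and 2.83. With equal numbers neither kept the call, and nor did ATF6, CANX, CDC42 and VIL1, which are also given here with all regions. MYC was held by all 4 with fold 2.35, 2.43, 5.32 and 4.15. EPCAM and HNF4A, a transcription factor of enterocytes, were also held by all 4, with 5.41, 4.94, 6.87 and 4.83 at HNF4A. Of 8 genes of the MYC locus 0 were on either side, and MYC and the lncRNA PVT1 were held by all 4. Of 32 cell cycle genes 2, CCND1 and CDK6, were on the acetyl side and 2 were held by all 4. Of 33 Wnt genes 1 was on the acetyl side and 3 were held by all 4, and of 28 TGF-beta genes 0 and 2. Of 19 genes of the unfolded protein response 2, ATF6 and CANX, were on the acetyl side, and 4, XBP1, DDIT3, HSP90B1 and PDIA4, were held by all 4. Of 17 Krüppel-like factor genes 0 were on either side, and KLF6 was held by all 4. Of 32 adhesion and motility genes CDC42, a small GTPase of the actin cytoskeleton, was on the acetyl side with fold 4.04 and 3.21, and LAMB3, a laminin chain of the basement membrane, and CLDN4 were held by all 4, with 4.18, 4.58, 15.8 and 8.24 at LAMB3. Of 26 enterocyte and goblet cell genes VIL1 was on the acetyl side and HNF4A was held by all 4. Over all protein-coding genes, 4.64% were on the acetyl side and 4.92% were held by all 4. The lists had 6.25% and 6.25% (cell cycle), 3.03% and 9.09% (Wnt), 0% and 7.14% (TGF-beta) and 0% and 25% (MYC locus). The unfolded protein response had 10.5% and 21.1%, Krüppel-like factors 0% and 5.88%, adhesion genes 3.1% and 6.25%, and enterocyte genes 3.85% and 3.85%. These shares of short lists were not tested.

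The promoters themselves were compared as letters. RefSeq promoters (GRCh38.p14, from 250 bases before to 50 after the start) were found for 11 of the 12 protein-coding genes of the butyryl side and 757 of 929 of the acetyl side, with all regions. Median GC was 71.7% and 64.3%, against 62.0% for 819 promoters of genes held by all 4 and 58.3% for all 27305 promoters of the table. With equal numbers the medians were 67.3% over 59 butyryl promoters and 64.0% over 253 acetyl promoters. Each motif was searched on both strands, and overlaps between motifs were allowed. A GC box (GGGCGG) was found in 78.0% of the 59 and 70.0% of the 253. It was found in 61.4% of 637 promoters of genes held by all 4 with equal numbers, and in 44.6% of all promoters. All promoters of the table are not limited to protein-coding genes, as the other classes are. The CCAAT box (CCAAT) was found in 27.1% and 43.9%, against 38.1% (held by all 4) and 35.7% (all promoters). In the same order, ETS (CCGGAAGT) stood at 11.9% and 14.2%, against 13.7% and 4.44%. The cyclic AMP element (TGACGTCA) stood at 5.08% and 6.32%, against 5.97% and 1.98%, and AP-1 (TGANTCA) at 6.78% and 5.14%, against 5.81% and 7.76%. With all regions the motif shares of the 11 butyryl and 757 acetyl promoters were 45.5% and 40.0% for CCAAT, 27.3% and 11.1% for ETS, and 9.09% and 5.02% for the cyclic AMP element, the reverse of the order with equal numbers for all 3. These are matches in a window and were not tested.

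The one-sided genes were also looked up in the other 16 ChIP libraries. Each of the 20 butyryl-side genes had a TSS region in H3K18ac NaBu replicate 1, where 44.3% of all genes had one, and 17 had one in replicate 2. H3K18bu, butyrylation of lysine 18 of histone H3, had one at 12 and 6 of the 20, against 14.1% and 9.79% of all genes. In untreated cells H4K12ac was present at 16 and 18 of the 20, against 48.9% and 48.6% of all genes, and in propionate-treated cells at 9 and 8, against 26.9% and 21.9%. SMARCD1 and PBRM1 each had a TSS region in 13 of the 16 libraries, RAB22A in 16 and APMAP in 15. MIR3142HG had one in 4. For the acetyl-side genes, 98.8% had a region in H3K18ac NaBu replicate 1, and 65.5% and 31.9% in the H3K18bu libraries. Each gene on the butyryl side thus had an H3K18ac region in at least 1 other library of the treated cells.

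At H3K18 in the same run, the numbers lay side by side with those at H4K12 as follows. At equal numbers the butyryl side held 70 genes at the TSS and the acetyl side 1353, a butyryl share of 4.92% (3.91% to 6.17%), and over gene bodies 310 and 1312, a share of 19.1% (17.3% to 21.1%). Both H3K18ac lists stood at 60344 or more regions, so the pair of lists that is close in length at H4K12 has no counterpart there. The difference between the histone sites was not tested.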

How the data were processed

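SW480 chromatin was measured by ChIP-seq in 2 H4K12bu and 2 H4K12ac libraries of NaBu-treated cells. Per the labels, the submitters' processing notes and the methods of the study, the authors aligned reads to GRCh38.p13 with Bowtie2 2.3.1 after trimming with cutadapt 1.8.1 (bcl2fastq 2.17.1), and called peaks with MACS2 2.1.0 against input in each library at p 0.01, with blacklisted regions removed. The deposited lists give a fold enrichment (a ratio of pileup to background), and the deposited −log10 p-values and −log10 q-values of each peak. The authors compared marks on reads, which were not analysed here.

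Peak ends lay inside the hg38 chromosome lengths. Windows came from GENCODE 44 protein-coding and lncRNA genes, and an overlap of 1 bp counted. Computation used Python 3.11.15, numpy 2.4.6, scipy 1.17.1 and matplotlib 3.10.9. One-sided calls and the recovery of fragment size were tested on simulated data. Reads are not independent molecules, and Wilson intervals at the 95% level cover counting error only. Depth was known only as the fragment step. Shares of regions were compared by a two-sided exact permutation test, and no other test was run. Named genes were the 10 strongest on each side at the TSS by the lower of the 2 −log10 p values, with all regions and with equal numbers, the 5 strongest over the body with equal numbers, the 10 highest and the 5 widest rank gaps on each side among genes held by all 4, and members of 22 gene lists. The text names part of these. The members and lists were chosen with earlier results of these data known. Of the list symbols, 3 had no match. Alternatives were another threshold, window, rule, gene type and input filter, and each library left out in turn.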

Additional observations from a re-analysis of the deposited data

How the results depend on the processing

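The butyryl share of one-sided genes at the TSS with all regions was 0% at q under 0.05 (0 butyryl against 614 acetyl genes) and 4.08% when either replicate sufficed. With equal numbers it was 32.8% when either replicate sufficed, 14.8% within 500 bp and 24.1% within 2.5 kb. Over bodies with all regions it was 0.138% at q under 0.05 and 1.51% with either replicate. With equal numbers it was 43.0% at q under 0.05, 44.4% with either replicate, 47.6% without the 1 kb after the TSS and 41.7% with 1000 regions each.

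Leaving out 1 library loosens the rule for its mark, so these values fall unevenly, and the cause of single moves was not tested. They ran from 0.433% (without acetyl replicate 2) to 10.1% (without butyryl replicate 2) at the TSS with all regions and from 15.5% to 48.9% with equal numbers. Over bodies they ran from 0.122% to 15.4%, and with equal numbers from 24.1% to 57.4%, where the sides turned to 56.4% without butyryl replicate 1 and to 57.4% without butyryl replicate 2. Without acetyl replicate 1, the library that stands apart, the shares were 6.74%, 15.5%, 15.4% and 29.5% in that order. For regions at equal numbers, the range was 14.4% to 56.9% at the TSS, the latter without butyryl replicate 2, and 23.5% to 81.1% away from it. Settings that keep the rule even, with 1 library against 1, gave 39.3%, 38.0%, 29.9% and 27.6% for TSS genes and 40.9%, 46.3%, 41.8% and 46.3% for body genes. They were chosen after seeing the data, as were the counts of regions by position.

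The TSS share of regions, butyryl minus acetyl, was −7.96 points with equal numbers and ran from −7.62 points without acetyl replicate 1 to 13.2 points without acetyl replicate 2. With the replicate block, paired by number, it was 2.79 points (exact sign-flip permutation p = 1, n = 2 pairs, smallest possible p 0.5). Nothing in the labels says that replicate numbers mark shared samples. Deviations of equal-numbered libraries had a correlation of 0.0750 over 1457 genes, which cannot settle whether they do. The counts of genes ranked higher ran from 463 to 522 (butyryl) and from 454 to 516 (acetyl) with 1 library left out, where fewer libraries must be apart. Other settings of these results kept their direction and stayed within the interval of the value reported, or within 1.5 times for counts. At the TSS the 20 butyryl genes all lost their regions at q under 0.05, and 13 kept the call within 500 bp and 16 within 2.5 kb. Of the 10 leading acetyl genes all 10 kept it at q under 0.05, 8 within 500 bp and 6 within 2.5 kb.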
